A study of Rattus norvegicus with 9 samples.

Results

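The genes described here are those of the collagen chains and laminin chains of the rat, together with fibronectin (Fn1), nidogen-1 and nidogen-2 (Nid1, Nid2), perlecan (Hspg2), elastin (Eln) and fibrillin-1 (Fbn1). The family was chosen with earlier results of these data known. Its members were taken by matching symbols, without use of their values, and 61 protein-coding genes of the RefSeq table of the rat assembly GRCr8 met that choice. A probe set annotated with a single gene was found for 36 of them, among 14497 genes measured in all. The other 25 were not analysed here, among them Col4a2, Col6a1, Col6a2, Col6a3, Col15a1, Col18a1, Lama2, Lama4, Lamb1, Nid1 and Hspg2.

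The study compared cells freshly isolated from the liver of F344 rats, without culture, in 3 groups of 3 arrays each. The adult group held hepatocytes obtained by collagenase perfusion from rats 5 to 6 weeks old. Both fetal groups came from livers of embryonic day 19 that were digested with collagenase and immunopurified on magnetic columns with antibodies to leucine aminopeptidase (LAP) and to the surface antigen OC.2. The OC.2- group was labelled LAP+/OC.2- and the OC.2+ group LAP+/OC.2+. A shorter text for the OC.2+ samples calls them LAP-OC2+, and the same double-positive column programme is given for both fetal groups, so the division used here rests on the titles and cell type labels. Each array (Affymetrix Rat ST 1.0) received 150 ng of total RNA. The labels call the 3 preparations of a group biological replicates. The p-values below set each group difference against the spread between preparations, pooled over the 3 groups and moderated across genes. With 3 arrays a group the precision of every value is limited.

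Collagens are built from 3 chains wound into a triple helix: the fibrillar types I, III and V make the fibres of connective tissue, and type IV makes the sheet of basement membranes. Laminins join 1 alpha, 1 beta and 1 gamma chain into a cross-shaped molecule, which nidogens link to the collagen IV network. In the liver most fibrillar collagen is made by stellate cells and portal fibroblasts, the sinusoids lack a continuous basement membrane, and hepatocytes secrete the fibronectin of blood plasma.

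The median intensity of an array ran from 79.5 to 81.0 in adult hepatocytes, 86.5 to 89.7 in OC.2- cells and 87.7 to 88.9 in OC.2+ cells. Arrays of the same group correlated at 0.986 to 0.992 over log2 values. No detection calls were used, so dim genes are described against the array median, which lay between 6.59 and 6.72 on the log2 scale. Of the 36 matrix genes, 15 lay above the array median on all 9 arrays, 8 lay below it on all of them and 13 on some. Of all genes, 35.9% lay above on all arrays and 37.2% below on all. Values are log2 intensities throughout, and probe sets of different genes are not set against each other.

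RefSeq's GRCr8 table of promoter windows held 27 of the 36 genes. Col1a1, Col3a1, Col12a1, Col14a1, Fn1, Nid2 and Lamb2 were among those without a window. The motif counts below therefore leave out many of the genes called in the comparisons. Windows are shown for 1 fibrillar collagen chain, 1 laminin chain and the shared start regions of both collagen IV pairs with a measured chain, as examples of the chain types measured and because each collagen IV pair is transcribed from a common region. Capitals mark matches to CCAAT (the CCAAT box), to GGGCGG (the GC box) or to TATAAA (the TATA box) on either strand, so that ATTGG as well as CCGCCC also count. The Col1a2 sequence is chr4:33518307-33518422 on the plus strand, the first 116 bases of its 250-base window. It ends 30 bases after its first TATAAA match and so stops short of the start. The Lamc1 sequence is the 250 bases before the start, chr13:68051987-68052236 on the minus strand. Col4a1 and Col4a2 are transcribed away from each other, and the 76 bases between their starts are chr16:84885521-84885596. Col4a3 and Col4a4 are likewise divergent, with 412 bases between their starts, of which the 88 bases at chr9:91323740-91323827 belong to the windows of both genes; both pairs are written on the plus strand.
Col1a2: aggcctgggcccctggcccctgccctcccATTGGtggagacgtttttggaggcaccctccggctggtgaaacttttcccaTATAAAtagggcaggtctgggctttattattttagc
Lamc1: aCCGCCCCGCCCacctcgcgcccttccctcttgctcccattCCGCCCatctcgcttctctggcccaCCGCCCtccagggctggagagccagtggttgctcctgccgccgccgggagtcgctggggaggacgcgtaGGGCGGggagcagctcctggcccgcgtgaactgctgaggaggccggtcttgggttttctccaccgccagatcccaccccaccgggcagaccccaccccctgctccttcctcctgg
Col4a1 and Col4a2: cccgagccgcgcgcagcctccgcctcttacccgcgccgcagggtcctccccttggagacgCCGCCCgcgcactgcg
Col4a3 and Col4a4: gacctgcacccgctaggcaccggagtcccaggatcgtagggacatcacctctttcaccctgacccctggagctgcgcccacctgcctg

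The 116 bases shown for Col1a2 held 1 match to the CCAAT box, 1 to the TATA box and none to the GC box. The rest of the Col1a2 window is not part of these counts. The Lamc1 window held 5 GGGCGG matches and neither of the others. The stretch between Col4a1 and Col4a2 held 1 GGGCGG match, and the stretch shared by Col4a3 and Col4a4 held 0 matches of any kind. Over the 250 bases before the start, CCAAT occurred in 8 of the 27 matrix genes and in 34.0% of all 33469 windows, GGGCGG in 14 of 27 and 30.5%, and TATAAA in 4 of 27 and 12.9%. Each matrix gene was counted with 1 window, the first listed, while the percents are over all windows. A match is a string of letters and is not a measured binding site.

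The group with the highest mean was the OC.2- fetal group for 23 of the 36 matrix genes, against 23.7% of all genes. OC.2+ cells had the highest mean for 8 of the 36 (47.0% of all genes) and adult hepatocytes for 5 (29.3% of all genes). In limma's moderated test with Benjamini-Hochberg adjustment over all 14497 genes, called at an adjusted p under 0.05, 12 matrix genes were lower in OC.2+ cells than in OC.2- cells, where 18.2% of all genes were called lower. None was higher, where 20.3% of all genes were called higher; at an unadjusted p under 0.05 the counts were 13 lower and 0 higher. Without OC.2- replicate 3, 2 genes were called higher, Col10a1 by 0.33 log2 units (adjusted p = 0.0155, limma) and Col11a2 by 0.26 (adjusted p = 0.0384, limma). The 12 lower genes were Fn1, Col14a1, Fbn1, Col1a1, Nid2, Lamb2, Col12a1, Lamc1, Col1a2, Col3a1, Col4a1 and Col5a2, of which Fn1 and Col14a1 were lower at least 2-fold. Of all genes, 6.63% were lower and 3.69% higher by as much.

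In OC.2- cells against adult hepatocytes, 12 matrix genes were higher and 1, Fn1, was lower, while 23.7% of all genes were called higher and 20.9% lower. The higher genes were Fbn1, Col14a1, Col1a1, Nid2, Col1a2, Col12a1, Lamb2, Col3a1, Col5a2, Col4a1, Lama5 and Col5a1, and the first 4 were higher at least 2-fold, while Fn1 was not lower by as much. Of all genes, 4.06% were higher and 6.58% lower at least 2-fold. Without OC.2- replicate 3, Col10a1 was called lower as well, by a log2 difference of -0.33 (adjusted p = 0.0145, limma). For OC.2+ minus adult, 6 matrix genes were higher (Col1a1, Fbn1, Col1a2, Nid2, Col12a1 and Lama5) and 2 were lower (Fn1 and Lamc1), while 32% of all genes were called higher and 23.4% lower. The count of 6 was 3 under each of the 3 other array scalings tried (quantile normalization, median centring and cyclic loess), where Col1a1, Col1a2 and Fbn1 were called. The count of 2 lower was 3 with median centring and with cyclic loess, where Col27a1 was called as well. None of the 6 reached 2-fold (7.82% of all genes did), and Fn1 was the one matrix gene lower by as much (11.1% of all genes were). The 3 comparisons share arrays in pairs, so their counts are not independent of one another.

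The median log2 difference over the 36 genes was -0.05 for OC.2+ minus OC.2- (0.04 over all genes), 0.14 in OC.2- cells against adult hepatocytes (0.07 over all genes) and 0.11 for OC.2+ minus adult (0.11 over all genes), where it was -0.0022 with quantile normalization, -0.020 with median centring and -0.037 with cyclic loess. Under the same scalings the median for OC.2- minus adult was 0.039, 0.012 and 0.057, and that for OC.2+ minus OC.2- was -0.13 with cyclic loess and ran from -0.10 to 0.0045 over the fits with 1 array left out. In all, 22 of the 36 genes were called in no comparison. The arrays did not overlap between the groups for 14 matrix genes between the fetal groups (46.5% of all genes), 15 in OC.2- against adult cells (51.4%) and 12 in OC.2+ against adult cells (62.2%).

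**Figure D1:**
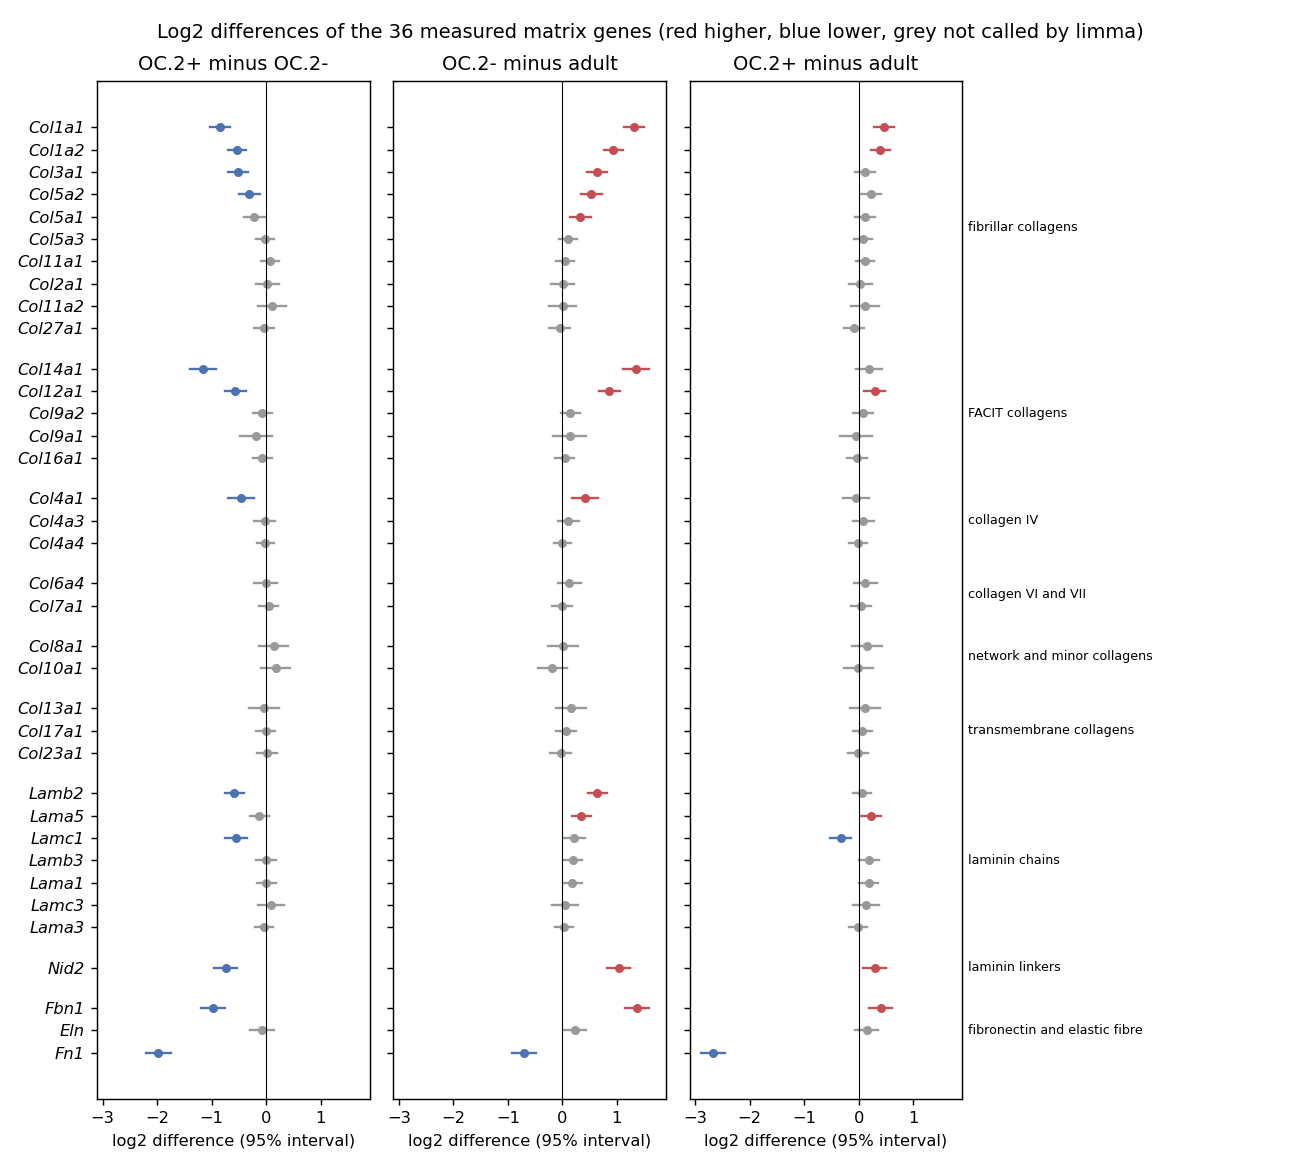
Log2 difference of each of the 36 matrix genes (rows, grouped by role) in the 3 comparisons, with 95% intervals from limma; red marks genes called higher, blue genes called lower and grey genes not called. The 12 blue genes of OC.2+ minus OC.2- lie in the fibrillar, FACIT, collagen IV, laminin, nidogen and fibronectin groups, and the collagen VI, VII, VIII, X and transmembrane rows are grey in all panels.

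**Figure D2:**
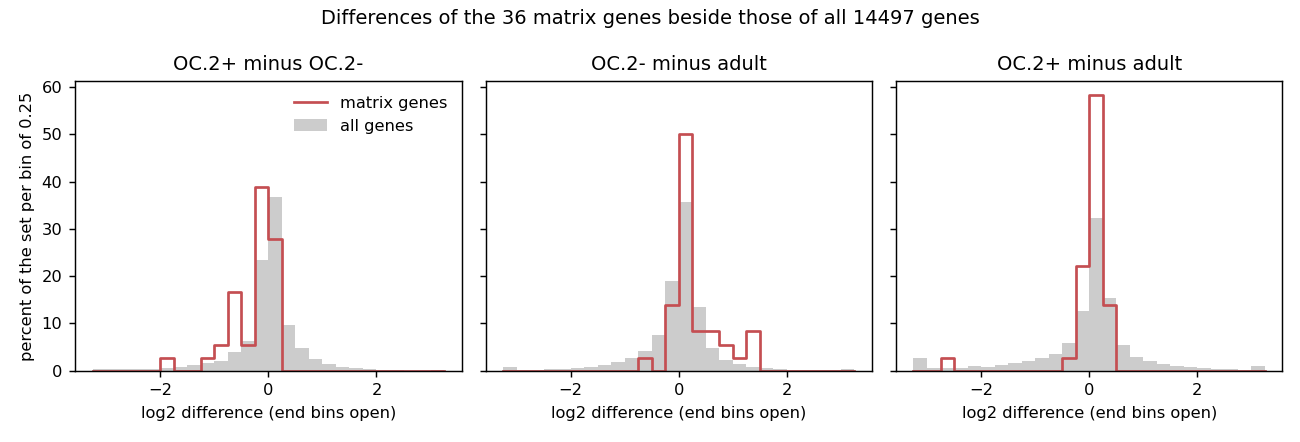
Percent of the 36 matrix genes (red line) and of all 14497 genes (grey bars) in each 0.25-wide bin of log2 difference, for the 3 comparisons. In OC.2+ minus OC.2- the highest matrix gene lies at 0.18 and the lowest, Fn1, at -1.97.

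These are bulk preparations, in which fewer cells of a type and less RNA per cell cannot be told apart, and markers of several cell types moved with the same groups. Of 6 measured endothelial markers, such as Lyve1, Kdr, Pecam1 and Cdh5, all 6 were lower in OC.2+ cells than in OC.2- cells and all 6 were higher in OC.2- cells than in adult hepatocytes. Their summed intensity ran from 3876 to 5327 in OC.2- cells, from 612 to 629 in OC.2+ cells and from 717 to 953 in adult hepatocytes. Of 12 stellate and mesenchymal markers, such as Dcn, Lum, Des and Pdgfra, 10 were lower in OC.2+ cells than in OC.2- cells, and 9 were higher and 1 lower in OC.2- cells than in adult hepatocytes. In OC.2+ cells against adult ones 5 were higher and 2 lower, with a median log2 difference of 0.16 and the highest, Vim, at 4.34. In OC.2- cells against adult ones the median was 0.75 and the highest 4.33. Sums of intensity weigh bright markers most. The summed intensity ran from 5254 to 6091 in OC.2- cells, from 3864 to 4616 in OC.2+ cells and from 1413 to 1525 in adult hepatocytes, while the median of the 12 gene means was 7.19, 6.63 and 6.48 on the log2 scale. The part of these cells in the matrix differences was not tested.

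Mesothelial markers, of which 4 were measured, summed to 460 to 574 in OC.2- cells, 258 to 288 in OC.2+ cells and 285 to 294 in adult hepatocytes, and 1 of the 4 was lower in OC.2+ cells than in OC.2- cells. In the opposite direction, 6 of 6 granulocyte markers were higher in OC.2+ cells than in OC.2- cells, with sums of 12611 to 14045 against 359 to 406, and 295 to 369 in adult hepatocytes. All 5 measured erythroid markers were higher too, with 26355 to 26449 in OC.2+ cells, 10382 to 12974 in OC.2- cells and 362 to 416 in adult hepatocytes. Of 3 megakaryocyte markers all 3 were higher in OC.2+ cells, with sums of 1168 to 1316 against 433 to 445 in OC.2- cells and 297 to 338 in adult hepatocytes. Of 8 macrophage markers 1 was lower in OC.2+ cells than in OC.2- cells, with sums of 1288 to 1499 against 1372 to 1832, and 880 to 995 in adult hepatocytes. Ductal markers (5 measured) summed to 326 to 354 in OC.2- cells, 298 to 320 in OC.2+ cells and 285 to 303 in adult hepatocytes, and 1 of 5 was lower in OC.2+ cells. The part of these markers' cells in the matrix differences was not tested either.

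**Figure D3:**
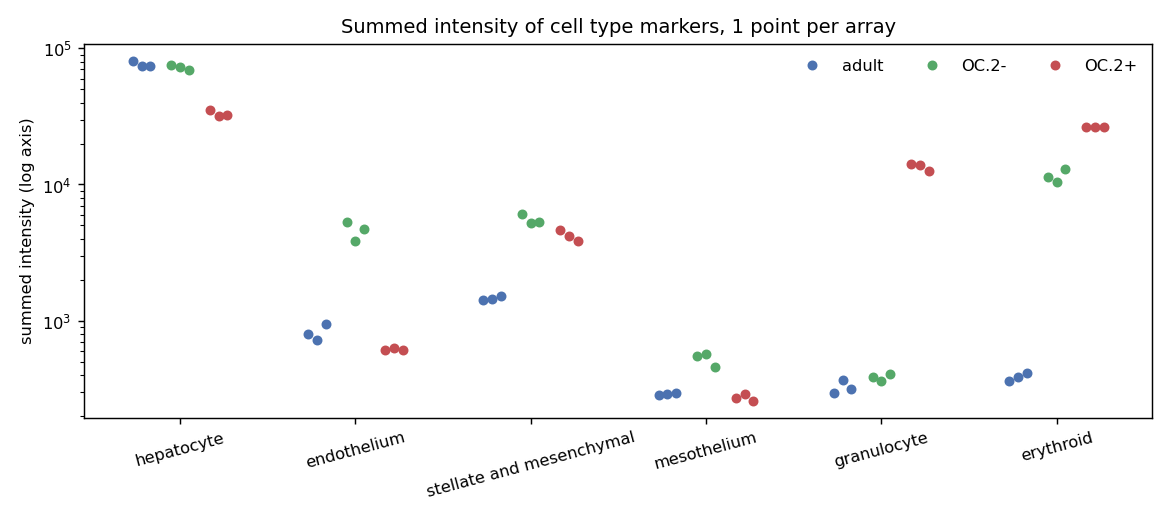
Summed intensity (log axis) of the markers of 6 cell types, 1 point per array, for adult (blue), OC.2- (green) and OC.2+ (red) cells. The endothelial sums are highest on the 3 OC.2- arrays (3876 to 5327), and the granulocyte sums are highest on the 3 OC.2+ arrays (12611 to 14045).

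Among the 10 measured fibrillar collagens, 4 were lower in OC.2+ cells than in OC.2- cells, 5 were higher in OC.2- cells than in adult hepatocytes and 2 were higher in OC.2+ cells than in adult hepatocytes, beside 18.2%, 23.7% and 32% of all genes; the last count is a smaller share than that of all genes. Col1a1, which encodes the alpha 1 chain of type I collagen, gave 7.43, 7.64 and 7.50 on the adult arrays, 8.97, 8.72 and 8.83 on the OC.2- arrays and 8.003, 7.982 and 8.003 on the OC.2+ arrays. The 3 groups did not overlap, with OC.2- highest and adult lowest. Col1a1 was 1.79-fold lower in OC.2+ cells than in OC.2- cells (95% interval 1.57 to 2.04, adjusted p = 3.74e-06, limma). Against adult hepatocytes it was 2.48-fold higher in OC.2- cells (2.18 to 2.83, adjusted p = 5.61e-08) and 1.39-fold higher in OC.2+ cells (1.22 to 1.58, adjusted p = 0.000412). Col1a2, the other chain of type I collagen, gave 7.24, 7.26 and 7.24 in adult hepatocytes, 8.28, 8.05 and 8.23 in OC.2- cells and 7.65 on each of the 3 OC.2+ arrays. The order was the same and again without overlap; it was 1.45-fold lower in OC.2+ cells than in OC.2- cells (1.29 to 1.63, adjusted p = 8.94e-05), and 1.91-fold (1.7 to 2.15, adjusted p = 5.28e-07) and 1.32-fold (1.17 to 1.48, adjusted p = 0.000678) higher than adult in OC.2- and OC.2+ cells.

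The deposited Col1a2 value was identical on all 3 OC.2+ arrays. Such ties within a group occurred for 4 of the 36 matrix genes (Col1a2 and Col5a2 in OC.2+ cells, Col4a4 and Col23a1 in adult hepatocytes) and for 3.43% of all genes. How they arose was not tested, and the spread of a tied gene in that group is not a measured one.

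Col3a1, whose type III collagen forms fine reticular fibres, gave 6.71, 6.89 and 6.83 in adult hepatocytes, 7.42, 7.38 and 7.57 in OC.2- cells and 6.98, 6.98 and 6.85 in OC.2+ cells. The OC.2- arrays stood above all others, while the adult and OC.2+ arrays overlapped. It was 1.43-fold lower in OC.2+ cells than in OC.2- cells (1.26 to 1.62, adjusted p = 0.00023, limma) and 1.56-fold higher in OC.2- cells than in adult hepatocytes (1.37 to 1.77, adjusted p = 3.65e-05). The log2 difference of OC.2+ cells from adult hepatocytes was 0.12 (-0.06 to 0.30, adjusted p = 0.235). Col5a2, a chain of the type V collagen that is built into type I fibrils, was 1.24-fold lower in OC.2+ cells than in OC.2- cells (adjusted p = 0.0153, limma), a call lost without OC.2- replicate 1 (adjusted p = 0.0741). It was 1.44-fold higher in OC.2- cells than in adult hepatocytes (adjusted p = 0.000322). Its log2 difference of 0.22 between OC.2+ and adult cells (0.03 to 0.42) had an adjusted p of 0.0505. That difference was called in 7 of 18 alternative settings, and the adjusted p ran from 0.0167 without adult replicate 2 to 0.477 (limma). Col5a1, the partner chain, was 1.26-fold higher in OC.2- cells than in adult hepatocytes (adjusted p = 0.00697, limma), and differed between the fetal groups by -0.21 (-0.40 to -0.02, adjusted p = 0.0737). The fetal difference was called in 3 of 18 alternative settings. These were cyclic loess scaling (adjusted p = 0.0133, limma), quantile normalization (0.0462) and genes above the median only (0.0487).

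FACIT collagens sit on the surface of fibrils, and of the 5 measured here Col14a1 and Col12a1 were called. For OC.2+ minus OC.2- the 2 of 5 called lower stand beside 18.2% of all genes. For OC.2- minus adult the 2 of 5 called higher stand beside 23.7%, and for OC.2+ minus adult 1 of 5 beside 32%. With 5 genes these counts say little about the FACIT group. Col14a1 gave 6.55, 6.62 and 6.69 in adult hepatocytes, 8.01, 7.71 and 8.20 in OC.2- cells and 6.84, 6.82 and 6.78 in OC.2+ cells. The OC.2- arrays were far above both other groups, which lay close together without overlapping. It had the largest fold of the 25 measured collagens in both OC.2- comparisons, 2.23-fold lower in OC.2+ cells than in OC.2- cells (1.89 to 2.63, adjusted p = 1.72e-06, limma) and 2.56-fold higher in OC.2- cells than in adult hepatocytes (2.17 to 3.01, adjusted p = 3.86e-07). OC.2+ cells differed from adult hepatocytes by 0.20 (-0.04 to 0.43, adjusted p = 0.143). That difference was called only when the fit held just the groups compared (adjusted p = 0.0375, limma). Col12a1 gave 5.70, 5.81 and 5.69 in adult hepatocytes, 6.71, 6.66 and 6.42 in OC.2- cells and 6.06, 6.06 and 5.96 in OC.2+ cells. The groups did not overlap, although the adult and OC.2+ arrays lay below every array median. Of the OC.2- arrays, replicates 2 and 3 also lay below their own array medians. It was 1.48-fold lower in OC.2+ cells than in OC.2- cells (1.3 to 1.7, adjusted p = 0.000166, limma) and 1.82-fold higher in OC.2- cells than in adult hepatocytes (1.59 to 2.08, adjusted p = 3.97e-06). The 1.23-fold higher level in OC.2+ cells than in adult hepatocytes (1.07 to 1.4, adjusted p = 0.0134) lost its call under the 3 other array scalings (adjusted p from 0.194 to 0.260).

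**Figure D4:**
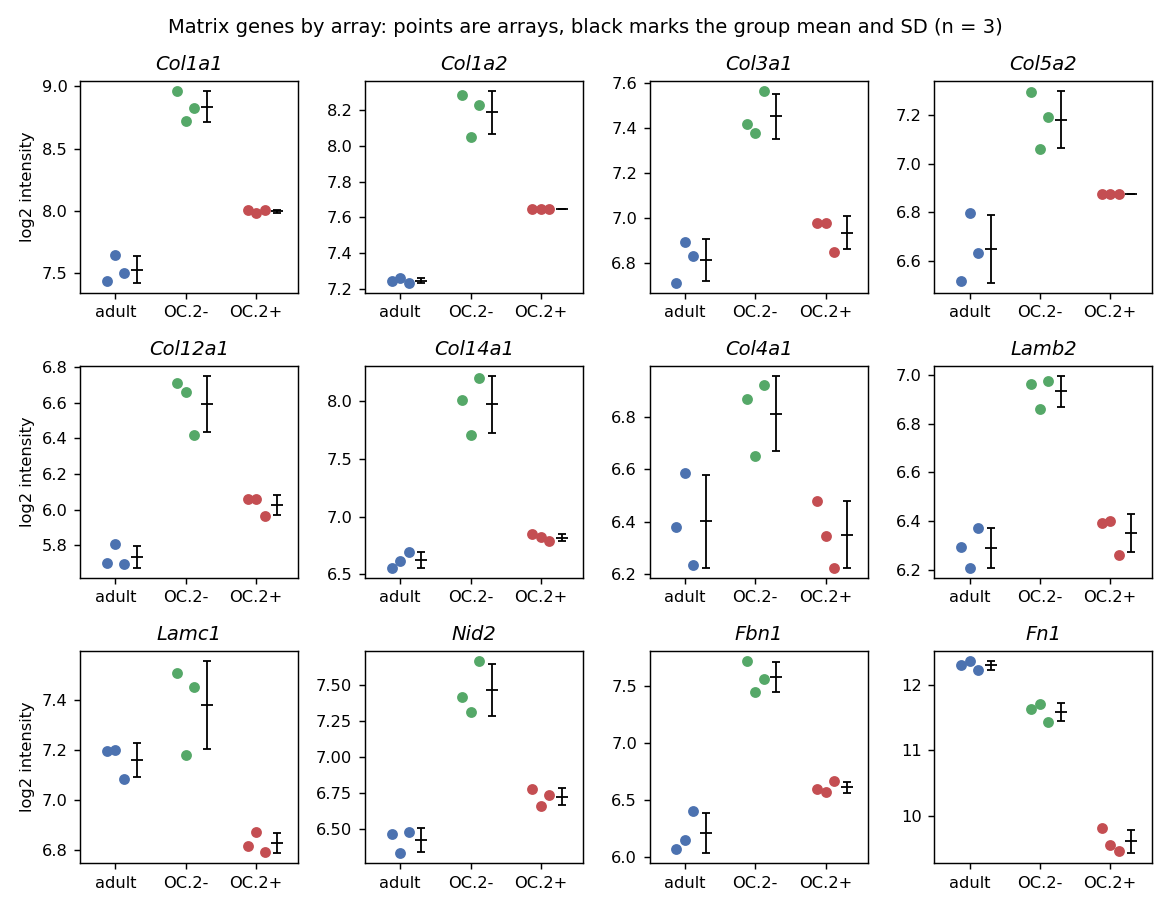
Log2 intensity (vertical axis, its own range in each panel) of 12 matrix genes on each of the 9 arrays, with the group mean and SD in black (n = 3). In every panel the OC.2- arrays lie above all OC.2+ arrays, and in every panel but that of Fn1 they have the highest mean. For Lamc1 they overlap the adult arrays, and Fn1 is highest in adult hepatocytes.

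Collagen IV is the network collagen of basement membranes, and of the 3 measured chains Col4a1 was called. Its fall between the fetal groups makes 1 of 3 chains, beside 18.2% of all genes. Its rise for OC.2- minus adult makes 1 of 3, beside 23.7%. With 3 chains these counts say little about collagen IV as a group. Col4a1, a chain of the widespread form, gave 6.38, 6.59 and 6.24 in adult hepatocytes, 6.87, 6.65 and 6.92 in OC.2- cells and 6.48, 6.35 and 6.22 in OC.2+ cells. The OC.2- arrays were above all others, and the adult and OC.2+ arrays overlapped. It was 1.38-fold lower in OC.2+ cells than in OC.2- cells (1.17 to 1.62, adjusted p = 0.00394, limma) and 1.33-fold higher in OC.2- cells than in adult hepatocytes (1.13 to 1.57, adjusted p = 0.0079), while OC.2+ and adult cells differed by -0.05 (-0.29 to 0.19, adjusted p = 0.71). Col4a3 and Col4a4, chains of the specialised form known from the kidney glomerulus, were not called. Between the fetal groups Col4a3 differed by -0.02 (-0.21 to 0.17, adjusted p = 0.892) and Col4a4 by -0.01 (-0.17 to 0.15, adjusted p = 0.92).

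Of the 7 measured laminin chains, Lamb2 and Lamc1 were lower in OC.2+ cells than in OC.2- cells, and Lamb2 and Lama5 were higher in OC.2- cells than in adult hepatocytes, which is 28.6% of the chains in each case, near the 18.2% and 23.7% of all genes. Lamb2, the laminin beta 2 chain, gave 6.29, 6.21 and 6.37 in adult hepatocytes, 6.96, 6.86 and 6.97 in OC.2- cells and 6.39, 6.40 and 6.26 in OC.2+ cells. The OC.2- arrays stood above the other groups, which overlapped. It was 1.5-fold lower in OC.2+ cells than in OC.2- cells (1.33 to 1.68, adjusted p = 5.04e-05, limma) and 1.56-fold higher in OC.2- cells than in adult hepatocytes (1.39 to 1.76, adjusted p = 2.01e-05), with a difference of 0.06 between OC.2+ and adult cells (-0.11 to 0.23, adjusted p = 0.528). Lamc1, the gamma 1 chain found in most laminins, gave 7.20, 7.20 and 7.08 in adult hepatocytes, 7.51, 7.18 and 7.45 in OC.2- cells and 6.82, 6.87 and 6.79 in OC.2+ cells. All OC.2+ arrays were below those of both other groups, and the second OC.2- array lay within the adult range. Lamc1 was 1.46-fold lower in OC.2+ cells than in OC.2- cells (1.27 to 1.68, adjusted p = 0.0003, limma) and 1.26-fold lower than in adult hepatocytes (1.1 to 1.45, adjusted p = 0.00824). The difference of 0.22 between OC.2- and adult cells (0.02 to 0.42) had an adjusted p of 0.0727, and of 0.00923 without OC.2- replicate 2.

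Lama5, the alpha 5 chain of adult basement membranes, gave 5.93, 6.15 and 6.01 in adult hepatocytes, 6.33, 6.33 and 6.49 in OC.2- cells and 6.26, 6.29 and 6.23 in OC.2+ cells, below the median of every array. Both fetal groups lay above the adult arrays. It was 1.27-fold higher in OC.2- cells than in adult hepatocytes (1.12 to 1.44, adjusted p = 0.00374, limma), and OC.2+ cells differed from OC.2- cells by -0.12 (-0.30 to 0.06, adjusted p = 0.306). The 1.17-fold higher level in OC.2+ than in adult cells (1.03 to 1.33, adjusted p = 0.0323) was lost when any 1 of adult replicates 1 and 3 or OC.2+ replicates 1 to 3 was left out (adjusted p from 0.0549 to 0.119) and under the 3 other scalings (0.370 to 0.437). Lama1, the alpha 1 chain of early embryonic laminin, gave 6.12, 6.21 and 5.97 in adult hepatocytes, 6.25, 6.25 and 6.35 in OC.2- cells and 6.27, 6.33 and 6.25 in OC.2+ cells. Its fetal arrays lay just above the adult ones, and the differences of 0.18 in OC.2- cells (0.01 to 0.36, adjusted p = 0.0876) and 0.18 in OC.2+ cells (0.01 to 0.36, adjusted p = 0.0713) were not called, except without adult replicate 2 (adjusted p = 0.043 and 0.0335, limma). Lamb3, Lama3 and Lamc3 were not called; Lamb3, too, was called without adult replicate 2 in both comparisons with adult hepatocytes (adjusted p = 0.0291 and 0.0215, limma).

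Nid2, the measured nidogen, gave 6.47, 6.33 and 6.48 in adult hepatocytes, 7.42, 7.31 and 7.67 in OC.2- cells and 6.78, 6.66 and 6.74 in OC.2+ cells. The groups did not overlap and kept the order of Col1a1. Nid2 was 1.67-fold lower in OC.2+ cells than in OC.2- cells (1.45 to 1.93, adjusted p = 3.31e-05, limma) and 2.05-fold higher in OC.2- cells than in adult hepatocytes (1.78 to 2.37, adjusted p = 1.44e-06). Its 1.23-fold higher level in OC.2+ than in adult cells (1.06 to 1.42, adjusted p = 0.0187) was lost without adult replicate 2, OC.2+ replicate 1 or OC.2+ replicate 3 (adjusted p from 0.0516 to 0.0677) and under the 3 other scalings (0.178 to 0.205).

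Fbn1, the main protein of the microfibrils on which elastic fibres form, gave 6.07, 6.15 and 6.40 in adult hepatocytes, 7.72, 7.45 and 7.57 in OC.2- cells and 6.60, 6.57 and 6.67 in OC.2+ cells. The groups did not overlap. It was 1.96-fold lower in OC.2+ cells than in OC.2- cells (1.68 to 2.27, adjusted p = 4.18e-06, limma), 2.59-fold higher in OC.2- cells than in adult hepatocytes (2.23 to 3.01, adjusted p = 1.52e-07) and 1.32-fold higher in OC.2+ cells than in adult hepatocytes (1.14 to 1.54, adjusted p = 0.00389). Eln, the elastic core protein, gave 7.06, 7.16 and 6.88 in adult hepatocytes, 7.16, 7.17 and 7.45 in OC.2- cells and 7.23, 7.16 and 7.16 in OC.2+ cells. Its arrays overlapped in part, the fetal groups differed by -0.08 (-0.29 to 0.14, adjusted p = 0.631), and the difference of 0.23 between OC.2- and adult cells (0.01 to 0.44, adjusted p = 0.0822) was called only without adult replicate 2 (adjusted p = 0.0463, limma).

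Fibronectin had its highest level in adult hepatocytes, whereas every collagen called in a comparison had its highest mean in OC.2- cells. Fn1 gave 12.29, 12.36 and 12.22 in adult hepatocytes, 11.62, 11.70 and 11.44 in OC.2- cells and 9.81, 9.57 and 9.46 in OC.2+ cells. No arrays overlapped, and the means were 12.29 ± 0.0696, 11.59 ± 0.138 and 9.61 ± 0.18 (SD, n = 3). Fn1 was 3.93-fold lower in OC.2+ cells than in OC.2- cells (3.37 to 4.59, adjusted p = 6.62e-09, limma), 1.63-fold lower in OC.2- cells than in adult hepatocytes (1.39 to 1.9, adjusted p = 9.33e-05) and 6.4-fold lower in OC.2+ cells than in adult hepatocytes (5.48 to 7.47, adjusted p = 9.95e-11). Its log2 difference lay at percentile 2.25 of all genes between the fetal groups, 9.88 in OC.2- against adult cells and 3.39 in OC.2+ against adult cells.

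All 8 hepatocyte markers, such as Alb, Ttr, Hnf4a and F2, were lower in OC.2+ cells than in each other group. Their summed intensity ran from 74430 to 80754 in adult hepatocytes, from 69140 to 74884 in OC.2- cells and from 31758 to 35044 in OC.2+ cells. In OC.2- cells against adult hepatocytes 2 of the 8 were lower (Ttr and Hnf4a) and 1 was higher (Apoa1). Their part in the Fn1 differences was not tested.

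The 22 genes called in no comparison were Col2a1, Col4a3, Col4a4, Col5a3, Col6a4, Col7a1, Col8a1, Col9a1, Col9a2, Col10a1, Col11a1, Col11a2, Col13a1, Col16a1, Col17a1, Col23a1, Col27a1, Eln, Lama1, Lama3, Lamb3 and Lamc3. Many of them encode chains known from cartilage (types II, IX, X and XI), from anchoring structures of the skin (VII, XVII) or from transmembrane collagens (XIII, XVII, XXIII). Their log2 differences ran from -0.18 to 0.18 between the fetal groups, from -0.18 to 0.23 in OC.2- against adult cells and from -0.08 to 0.19 in OC.2+ against adult cells. A missed call does not show that their levels were the same.

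The enzymes and chaperones that modify, fold, cut and crosslink collagen were measured for 26 of 30 listed genes, and 18 of the 26 were lower and 1 higher in OC.2+ cells than in OC.2- cells (18.2% and 20.3% of all genes), with a median log2 difference of -0.52. For OC.2- minus adult 13 were higher and 5 lower (23.7% and 20.9% of all genes), and in OC.2+ cells relative to adult hepatocytes 6 were higher and 10 lower (32% and 23.4%). Serpinh1, the collagen-specific chaperone HSP47, gave 6.42, 6.25 and 6.55 in adult hepatocytes, 8.62, 8.44 and 8.44 in OC.2- cells and 6.79, 6.54 and 6.79 in OC.2+ cells. The OC.2- arrays stood apart, and the adult and OC.2+ arrays overlapped. It was 3.48-fold lower in OC.2+ cells than in OC.2- cells (2.99 to 4.05, adjusted p = 1.27e-08, limma) and 4.27-fold higher in OC.2- cells than in adult hepatocytes (3.67 to 4.97, adjusted p = 2.79e-09). Its 1.23-fold higher level in OC.2+ than in adult cells (adjusted p = 0.0239) was lost without adult replicate 2, OC.2+ replicate 1 or OC.2+ replicate 3 (adjusted p from 0.0878 to 0.0974) and under the 3 other scalings (0.187 to 0.236).

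Plod1, a lysyl hydroxylase, was 3.33-fold lower in OC.2+ cells than in OC.2- cells (2.87 to 3.87, adjusted p = 1.52e-08, limma) and 2.84-fold lower than in adult hepatocytes (adjusted p = 2.45e-08). P4hb, the protein disulfide isomerase that is also the beta subunit of prolyl 4-hydroxylase, was 2.78-fold lower in OC.2+ cells than in OC.2- cells (2.5 to 3.08, adjusted p = 2.68e-09). The gene that was higher there was Adamts3, which cuts the amino-terminal propeptide, by 1.75-fold (1.48 to 2.06, adjusted p = 4.96e-05), and it was 1.97-fold higher in OC.2+ than in adult cells (adjusted p = 4.95e-06). Besides Serpinh1, the genes with the largest rise in OC.2- cells over adult hepatocytes were Crtap, a partner of prolyl 3-hydroxylase, by 2.6-fold (adjusted p = 2.78e-07), and Pcolce, which aids removal of the carboxy-terminal propeptide, by 2.56-fold (adjusted p = 2.15e-07). The largest falls there were in Loxl4, a lysyl oxidase homologue, by 2.71-fold (adjusted p = 5.08e-06), Sec23a, a coat protein of the vesicles that leave the endoplasmic reticulum, by 2.39-fold (adjusted p = 2.61e-07), and Bmp1, the protease that removes the carboxy-terminal propeptide, by 2.07-fold (adjusted p = 2.63e-06).

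Relative to adult hepatocytes, in OC.2+ cells Bmp1 was 5.51-fold lower (4.72 to 6.44, adjusted p = 2.32e-10, limma) and Sec23a 2.86-fold lower (adjusted p = 1.79e-08), while Plod2, another lysyl hydroxylase, was 2.34-fold higher (adjusted p = 1.4e-06) and P3h3 1.33-fold higher (adjusted p = 0.00185). Plod2 and P3h3 were also called higher in OC.2- cells than in adult hepatocytes, with log2 differences of 1.21 and 0.67. Between the fetal groups Plod2 differed by 0.02 and was not called. P3h3 was called lower in OC.2+ cells than in OC.2- cells (log2 difference -0.26), a call lost in 6 of 18 alternative settings. P4ha1 and P4ha2 encode catalytic subunits of prolyl 4-hydroxylase. P4ha1 was not called between the fetal groups, with a difference of -0.06 (adjusted p = 0.714), and differed from adult hepatocytes by 0.22 in OC.2- cells (adjusted p = 0.0701) and 0.16 in OC.2+ cells (adjusted p = 0.148); without adult replicate 1 both were called (adjusted p = 0.0146 and 0.0306, limma). P4ha2 was 1.51-fold lower in OC.2+ cells than in OC.2- cells (adjusted p = 0.000137) and 1.81-fold lower than in adult hepatocytes (adjusted p = 2.77e-06); its 1.2-fold lower level in OC.2- than in adult cells (adjusted p = 0.0314) was lost without any 1 of the 6 arrays of those groups (adjusted p from 0.0554 to 0.0822). Lox, which crosslinks collagen and elastin, was 1.91-fold lower in OC.2+ cells than in OC.2- cells (adjusted p = 3.23e-05) and 1.94-fold higher in OC.2- cells than in adult hepatocytes (adjusted p = 2.42e-05), with a difference of 0.03 between OC.2+ and adult cells (adjusted p = 0.86).

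**Figure D5:**
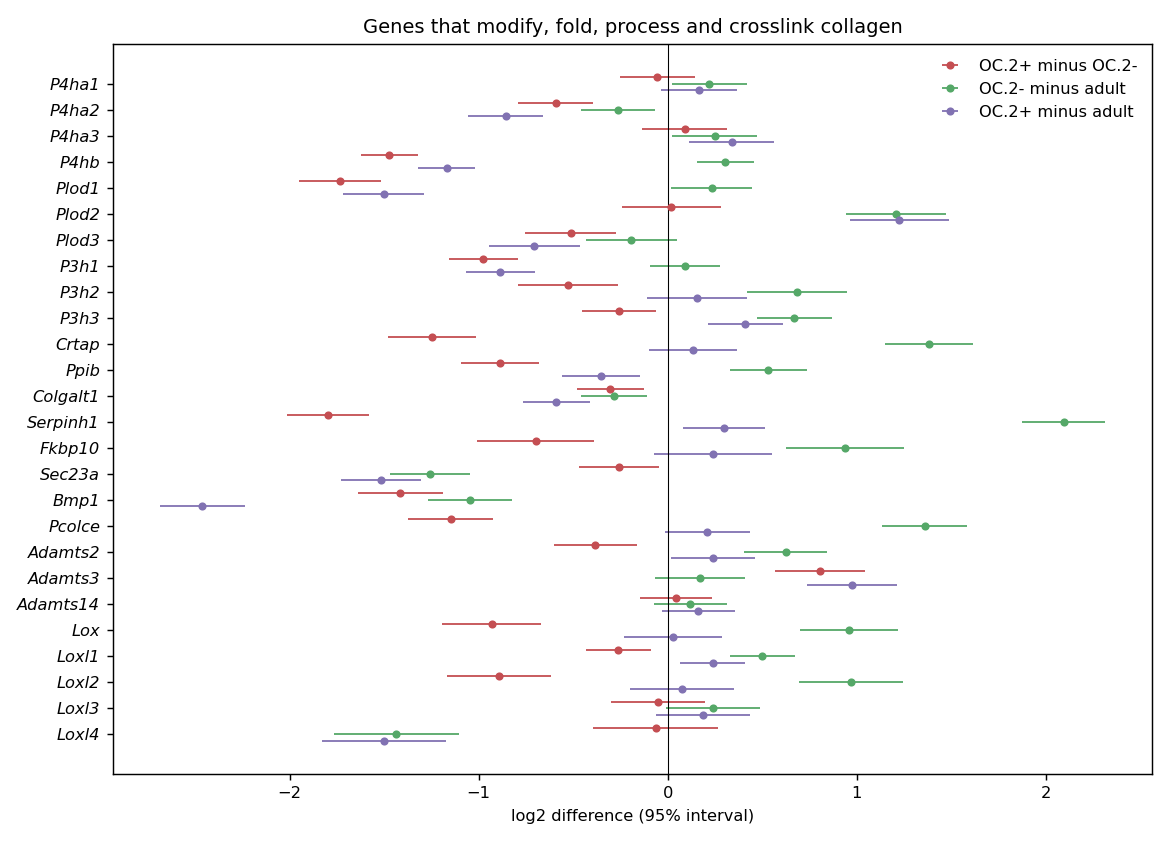
Log2 difference with 95% interval of the 26 measured collagen biosynthesis genes in the 3 comparisons (red OC.2+ minus OC.2-, green OC.2- minus adult, violet OC.2+ minus adult). Serpinh1 is the gene farthest to the right in OC.2- minus adult (4.27-fold) and Bmp1 the farthest to the left in OC.2+ minus adult (5.51-fold).

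Receptors for collagen, laminin and fibronectin were measured for 15 of 19 listed genes, and did not share 1 direction. Between OC.2+ and OC.2- cells 3 were higher and 5 lower by limma (20.3% and 18.2% of all genes). Between OC.2- and adult cells 7 were higher and 0 lower (23.7% and 20.9% of all genes). Between OC.2+ and adult cells 7 were higher and 2 lower (32% and 23.4% of all genes). The largest difference was in Itga4, the integrin alpha 4 chain of blood cells that binds fibronectin, which was 5.25-fold higher in OC.2+ cells than in OC.2- cells (4.55 to 6.05, adjusted p = 6.55e-10, limma) and 12.1-fold higher than in adult hepatocytes (10.5 to 13.9, adjusted p = 3.01e-12). It was 2.3-fold higher in OC.2- cells than in adult hepatocytes (adjusted p = 3.21e-07). Itgb3, the beta 3 chain known from platelets, was 1.39-fold higher in OC.2+ cells than in OC.2- cells (adjusted p = 0.000567) and 2.14-fold and 2.98-fold higher than adult in OC.2- and OC.2+ cells (adjusted p = 3.03e-07 and 3.63e-09). Itga6, a laminin receptor chain, was 1.41-fold higher in OC.2+ cells than in OC.2- cells (adjusted p = 0.00761), and its partner Itgb4 was 1.51-fold higher in OC.2+ cells than in adult hepatocytes (adjusted p = 0.00045).

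Itga1, the alpha chain of a collagen-binding integrin, was 3.69-fold lower in OC.2+ cells than in OC.2- cells (3.01 to 4.52, adjusted p = 1.29e-07, limma) and 4.15-fold lower than in adult hepatocytes (adjusted p = 2.42e-08). Itga5, the alpha chain of the main fibronectin receptor, was 1.91-fold lower in OC.2+ cells than in OC.2- cells (1.69 to 2.15, adjusted p = 8.16e-07) and 2.07-fold lower than in adult hepatocytes (adjusted p = 1.21e-07). Bcam, a receptor of the laminin alpha 5 chain, was 1.42-fold lower in OC.2+ cells than in OC.2- cells (adjusted p = 0.000261). Itgb1, the beta chain shared by most matrix integrins, was 1.4-fold lower in OC.2+ cells than in OC.2- cells (adjusted p = 9.85e-05) and 1.71-fold higher in OC.2- cells than in adult hepatocytes (adjusted p = 1.26e-06); its 1.23-fold higher level in OC.2+ than in adult cells (adjusted p = 0.00319) was lost with median centring (0.104). Ddr2, a collagen receptor kinase of mesenchymal cells, was 1.27-fold lower in OC.2+ cells than in OC.2- cells (adjusted p = 0.0162) and 1.26-fold higher in OC.2- cells than in adult hepatocytes (adjusted p = 0.0181), with a difference of -0.01 between OC.2+ and adult cells (adjusted p = 0.929). Its first call was lost without OC.2+ replicate 2, OC.2+ replicate 3 or OC.2- replicate 1 (adjusted p from 0.0514 to 0.0784), and its second without adult replicate 2 or OC.2- replicate 1 (0.0768 and 0.08) and under the 3 other scalings (0.120 to 0.149).

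In the adult and OC.2- groups 1 array tended to read high for the matrix genes. Adult replicate 2 was the highest of its group for 25 of the 36 genes (36.3% of all genes). OC.2- replicate 3 was the highest for 27 (33.5%), and OC.2+ replicate 1 was counted for 22 (36.9%). Ties were credited to the lowest-numbered array. OC.2+ replicate 1 was tied with another array for Col1a1, Col1a2, Col3a1, Col5a1, Col5a2, Col12a1 and Col27a1, among others or alone. Its count therefore does not show that it read high. With each of the 9 arrays left out in turn, from 11 to 12 matrix genes were lower in OC.2+ cells than in OC.2- cells, and from 12 to 15 were higher in OC.2- cells than in adult hepatocytes.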

How the data were processed

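RNA of 9 preparations was measured on Affymetrix Rat ST 1.0 arrays. The authors deposited 1 table of intensity values on a linear scale with 28826 rows; the submitters' processing notes name Partek 6.6 and RMA, with settings not given in the sources used here. Those deposited intensities were turned into log2 values here, with no further scaling. GEO's platform annotation gave 1 gene symbol to 15209 rows, several to 306 and none to 13311; only rows with 1 symbol were used, and for the 494 genes with several probe sets the row of highest mean was taken, which left 14497 genes. Of the single symbols, 15178 rows were found in RefSeq's GRCr8 table. Col6a4 was the only matrix gene with several probe sets.

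One limma (3.58.1, R 4.3.3) model over the 3 groups, with 6 residual degrees of freedom before moderation, tested each gene in 3 comparisons, 2-sided, with Benjamini-Hochberg adjustment over all genes; a call is an adjusted p under 0.05, and intervals are 95%. The fit was tested on simulated data. Values of all arrays are given for called genes with no overlap between arrays among the 6 highest and 6 lowest differences, and for a set of main matrix genes whatever their values; from the biosynthesis and receptor lists up to 3 called genes each way, and 6 set genes. The choice of this gene family, the lists and the markers was made with earlier results of these data known. Alternatives were other scalings, a minimum level for genes, averaged probe sets, another variance prior, fits of only the groups compared, a stricter threshold, the replicate number as a block, and leaving out each array.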

Additional observations from a re-analysis of the deposited data

How the results depend on the processing

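Among the matrix genes called in the comparisons, none changed direction under any alternative run. The number of matrix genes lower in OC.2+ cells than in OC.2- cells stayed between 11 and 12 when arrays were left out, and the number higher was 0, or 0 to 2 over the arrays left out. The median difference of -0.05 there became -0.13 with cyclic loess and -0.20 over the 24 matrix genes above the median, and ran from -0.10 to 0.00 over the arrays left out. Matrix genes lower in OC.2- than in adult cells numbered 1, but 2 with median centring and with cyclic loess (Col10a1 beside Fn1), and 1 to 2 over the arrays left out; the median of 0.14 became 0.039 with quantile normalization, 0.012 with median centring and 0.057 with cyclic loess (0.064 to 0.18 over the arrays left out). Matrix genes higher in OC.2+ than in adult cells numbered 6, but 3 with quantile normalization, median centring, cyclic loess or an adjusted p under 0.01, and 4 to 8 over the arrays left out; the median of 0.11 became -0.0022, -0.020 and -0.037 with those scalings (0.07 to 0.14 over the arrays left out). Those lower in OC.2+ than in adult cells numbered 2, but 3 with median centring and with cyclic loess. The added gene was Col27a1 (adjusted p = 0.0429 and 0.0286, limma). Col5a1 was no longer called higher in OC.2- than in adult cells with median centring (adjusted p = 0.069, limma).

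The scaling moves all genes. The median over all genes changed from 0.07 to -0.06 in OC.2- against adult cells with median centring, and from 0.11 to 0.00 with quantile normalization and -0.03 with median centring and cyclic loess in OC.2+ against adult cells. The share of called genes that were higher was 53.1% in OC.2- against adult cells, 34.6% with median centring and 42.5% with cyclic loess, and 57.8% in OC.2+ against adult cells, 42.5% with median centring and 42.2% with cyclic loess. All genes higher fell from 3431 to 2139 in OC.2- against adult cells with median centring, and from 4643 to 3024 with median centring and 3066 with cyclic loess in OC.2+ against adult cells. Collagen biosynthesis genes higher in OC.2+ cells than in OC.2- cells went from 1 to 0 among genes above the median, those lower in OC.2- than in adult cells from 5 to 3 at an adjusted p under 0.01, and those higher in OC.2+ than in adult cells from 6 to 3 under each of the 3 scalings and at that threshold (4 to 7 over the arrays left out). Receptors lower in OC.2- than in adult cells went from 0 to 1 with median centring, and those lower in OC.2+ than in adult cells from 2 to 4 with quantile normalization and cyclic loess.

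With the replicate number as a block, the counts of matrix genes were the same: 12 lower and 0 higher, 12 higher and 1 lower, and 6 higher and 2 lower in the 3 comparisons, and all genes called numbered 2843 higher and 2573 lower between the fetal groups. Same-numbered arrays did not deviate together (correlations from -0.16 to 0.05, -0.23 to 0.06 and 0.00 to 0.11), so the numbers were not taken to pair the preparations. For differently numbered arrays the correlations ran from -0.11 to 0.20, -0.16 to 0.29 and -0.13 to 0.05. Whether preparations were paired under other numbers was not tested. No measure of signal over background was used, and 21 of the 36 matrix genes lay below the array median on at least 1 array, so small differences of these dim genes are the least certain.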
